A study of Mus musculus with 6 samples.

Results

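The miR-200 family in mouse cortex was followed through 7 mature products, taken by name from a small RNA table of 1182 features. Of these products, 5 (miR-200b-3p, miR-200b-5p, miR-200a-3p, miR-200a-5p and miR-429-3p) derive from a locus on chromosome 4 and 2 (miR-200c-3p and miR-141-3p) from a locus on chromosome 6. Small RNA was sequenced from whole brain cortices of untreated adult males, in 3 libraries from fmr1 KO mice and 3 from fmr1 WT mice that the series describes as siblings. Fmr1 encodes FMRP, an RNA-binding protein of neurons that regulates translation. The labels give neither strain nor age in days, and do not say whether each library came from a separate animal, so p-values measure the spread between these libraries. The counts are of miRNAs and give no measure of Fmr1 itself.

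MicroRNAs (miRNAs) are short RNAs that repress matching messenger RNAs, and the bases near the 5′ end, the seed, choose most targets. The miR-200 family is known as a keeper of epithelial identity. It represses the transcription factors ZEB1 and ZEB2, which in turn repress both miR-200 loci. In the nervous system the family is known from the olfactory system, where it takes part in the maturation of olfactory neurons.

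The mature sequences show which products share a seed and which can be confused in counting. All 7 names matched the RefSeq miRNA set on GRCm38.p6, and the seed, bases 2 to 8, is in capitals. The sequences run 5′ to 3′.
mmu-miR-200b-3p: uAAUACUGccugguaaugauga
mmu-miR-429-3p: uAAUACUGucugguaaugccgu
mmu-miR-200c-3p: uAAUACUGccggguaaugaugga
mmu-miR-200a-3p: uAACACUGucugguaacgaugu
mmu-miR-141-3p: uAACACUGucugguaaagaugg
mmu-miR-200a-5p: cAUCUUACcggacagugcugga
mmu-miR-200b-5p: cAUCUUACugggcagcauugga

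The 3p products fall into 2 seed groups that cut across the loci, one with miR-200b-3p, miR-429-3p and miR-200c-3p and the other with miR-200a-3p and miR-141-3p. Positions are counted from 1 at the 5′ end, and miR-200a-3p and miR-200b-3p differ within the seed by C4U. The 5p products of miR-200a and miR-200b share another seed. Across loci the sequences are close. Over their first 22 bases miR-200b-3p and miR-200c-3p differ by U11G and A22G, and miR-200a-3p and miR-141-3p by C17A and U22G. How reads that fit more than 1 member were assigned is not given in the sources used here, so the split within these pairs may include reads of the partner.

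On GRCm38, the assembly of the mm10 build named by the submitters, the hairpins of the chromosome 4 locus lie within 1846 bases on the minus strand. They follow the order Mir200b (156055681 to 156055750), Mir200a (156054896 to 156054985) and Mir429 (156053905 to 156053987). All 3 lie in an intron of transcripts of Ttll10, a tubulin tyrosine ligase-like gene, on the same strand. In the noncoding gene Gm13648, also on that strand, Mir200b and Mir200a are intronic and Mir429 is exonic. On chromosome 6, Mir200c (124718322 to 124718390) and Mir141 (124717914 to 124717985) lie within 477 bases on the minus strand, in an intron of the noncoding gene Gm15884. Mir141 also lies partly in an exon of Gm29008, on the same strand.

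The window around the annotated start of Gm13648, 4052 bases upstream of Mir200b, is printed as a description of the locus. It covers 250 bases before and 50 after the start (GRCm38.p6, chr4:156059753-156060052, minus strand, from RefSeq). Capitals mark CACCTG, the E-box form that ZEB factors are known to bind.
Gm13648: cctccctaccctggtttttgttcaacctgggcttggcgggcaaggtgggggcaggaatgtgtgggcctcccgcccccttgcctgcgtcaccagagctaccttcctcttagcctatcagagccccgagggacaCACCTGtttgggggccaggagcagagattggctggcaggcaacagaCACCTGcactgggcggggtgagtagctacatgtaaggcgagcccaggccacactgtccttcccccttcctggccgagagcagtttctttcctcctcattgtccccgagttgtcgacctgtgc
The motif was searched on both strands, where it reads CACCTG or CAGGTG, and 2 matches were found. Of 32851 RefSeq promoter windows of this length, 20.2% held at least 1 match and 2.88% at least 2. The matches are a description of these letters and not of binding, and any part of this window in the measured levels was not tested.

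Libraries held 11182888 to 14385332 miRNA reads in KO and 13225790 to 15733876 in WT, and 541 miRNAs passed the count filter. Levels are given in CPM, reads scaled to a common library total, after TMM scaling, which adjusts library sizes for composition. Levels of different members are compared without a length term, since the mature forms have 22 or 23 bases. The 6 miRNAs listed for cortical neurons were together abundant in every library. Their summed level was 282229 to 424397 CPM in KO libraries and 310936 to 341534 CPM in WT libraries. Of these, miR-9-5p, a neural miRNA, had 183266, 316153 and 228914 CPM in KO replicates 1, 2 and 3, against 208016, 214168 and 226567 CPM in WT replicates 1, 2 and 3. Neuron-enriched miR-128-3p had 96339, 105761 and 90410 CPM in KO, against 99663, 101759 and 111894 CPM in WT.

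The miR-200 family was a minor component of cortex, and KO replicate 1 had the lowest and KO replicates 2 and 3 the highest values of every product. The 7 products took 0.0019%, 0.0805% and 0.113% of the reads in KO replicates 1, 2 and 3, against 0.0169%, 0.00923% and 0.03% in WT replicates 1, 2 and 3. Their summed level spanned 59.6-fold over the 3 KO libraries and 3.46-fold over the 3 WT libraries. All 7 products passed the count filter.

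The 2 dominant products were mmu-miR-200a-3p and mmu-miR-200b-3p, which together made up 83.4% to 84.8% of the family's reads in KO libraries and 84.7% to 86.5% in WT libraries. miR-200a-3p had 3.62, 437 and 520.3 CPM in KO replicates 1, 2 and 3, against 69.6, 37.2 and 141.9 CPM in WT replicates 1, 2 and 3. These values rest on 53, 5190 and 6312 reads in KO and 1062, 505 and 2158 reads in WT. KO replicate 1 lay below every WT library and the other KO libraries above every WT library, so the genotypes overlapped as groups. miR-200b-3p had 10.9, 388.9 and 345 CPM in KO, against 72.7, 39.2 and 121.2 CPM in WT. It showed the same arrangement, with a smaller distance from WT replicate 2 to KO replicate 1 (3.59-fold, against 10.3-fold for miR-200a-3p).

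The less abundant products of the chromosome 4 locus followed. mmu-miR-429-3p, the third hairpin of the locus, had 0.478, 41 and 67.9 CPM in KO, against 7.67, 5.15 and 13 CPM in WT. It was lowest in KO replicate 1, with 7 reads, and stood at 3.16 and 5.24 times WT replicate 3 in KO replicates 2 and 3. The passenger strand miR-200a-5p had 1.71, 66.1 and 62.6 CPM in KO, against 9.7, 5.74 and 19.8 CPM in WT. The other passenger strand, miR-200b-5p, was near the detection limit. It had 0, 38 and 58 reads in KO libraries, against 10, 3 and 16 reads in WT libraries, or 0, 3.2 and 4.78 CPM in KO against 0.655, 0.221 and 1.05 CPM in WT. A count of 0 in KO replicate 1 allows up to 0.205 CPM, taking 3 reads per library as the limit, so the level in KO replicate 3 was at least 23.4-fold higher than in KO replicate 1.

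Both products of the chromosome 6 locus had the same order of libraries apart from a swap of KO replicates 2 and 3. mmu-miR-200c-3p had 0.682, 33 and 33.5 CPM in KO, against 3.93, 2.21 and 13.1 CPM in WT, with 10 reads in KO replicate 1. Among the tested miRNAs it had the largest spread of log2 CPM over the WT libraries (SD 1.27, rank 1 of 541). Its neighbour mmu-miR-141-3p had 0, 58 and 41 reads in KO, against 5, 3 and 12 reads in WT. In CPM this was 0, 4.88 and 3.38 in KO, against 0.328, 0.221 and 0.789 in WT. With the same limit, the level in KO replicate 2 was at least 23.8-fold higher than in KO replicate 1. The opposite arms of these hairpins were almost absent, with 0, 8 and 12 reads of miR-141-5p in KO against 0, 0 and 2 in WT, and a single read of miR-200c-5p, in WT replicate 3.

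**Figure D1:**
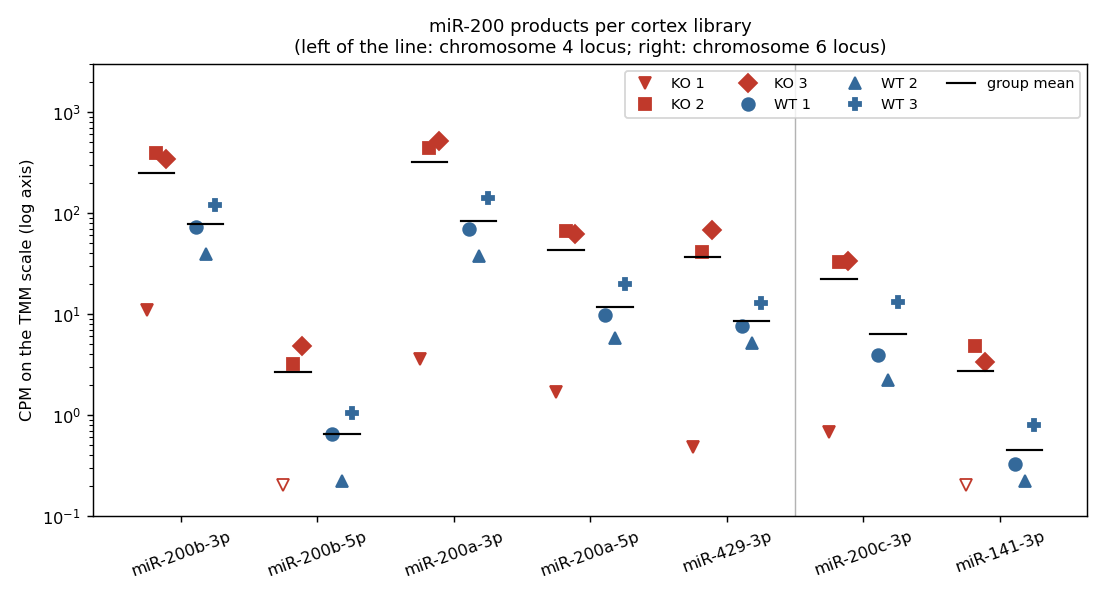
Level of each miR-200 product in CPM (log axis) in the 3 KO libraries (red, left of each pair) and the 3 WT libraries (blue, right), with black lines for group means and open symbols for counts of 0 drawn at the limit of 3 reads. For every product KO replicate 1 is the lowest library and KO replicates 2 and 3 are the highest.

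None of the 7 products passed the test between genotypes, although each had a higher mean in KO. The edgeR quasi-likelihood test called 0 of 7 at an adjusted p below 0.05, where 0% of the 541 tested miRNAs were called, and 0 of 7 at an unadjusted p under 0.05, where 6.47% were. DESeq2 and limma-voom also called 0 of 7 at either level. At the adjusted level both called 0% of tested miRNAs, and at the unadjusted level 7.02% and 6.1%. Mean levels were higher in KO for 7 of 7 products, beside 52.5% of all tested miRNAs. The median log2 fold change was 1.95 over the 7 and 0.03 over all tested miRNAs. Groups overlapped for all 7, while 15.7% of tested miRNAs had groups that did not.

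Mean levels of miR-200a-3p were 320.2 ± 277 CPM in KO cortex and 82.9 ± 53.6 CPM in WT cortex (SD, n = 3 each). The edgeR log2 fold change was 1.95 (SE 1.53, 95% interval -1.95 to 5.85, adjusted p = 0.791). For miR-429-3p the means were 36.5 ± 33.9 CPM in KO cortex and 8.59 ± 3.98 CPM in WT cortex, with an estimate of 2.08 on the log2 scale (SE 1.41, 95% interval -1.52 to 5.68). The product nearest to the threshold was miR-141-3p, at 2.75 ± 2.5 CPM in KO cortex and 0.446 ± 0.302 CPM in WT cortex. Its estimate was 2.56 on the log2 scale (SE 1.23, 95% interval -0.36 to 5.49, edgeR unadjusted p = 0.0766, adjusted p = 0.749). The other 4 had log2 fold changes from 1.68 for miR-200b-3p to 1.99 for miR-200b-5p, with adjusted p-values from 0.749 to 0.791. The intervals of all 7 included 0.

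The size of these differences depended on the scale of the mean. edgeR compares mean levels, which the 2 high KO libraries dominate. As differences of mean log2 CPM, chosen after the data were seen, the values were smaller, from 0.4 for miR-200a-3p to 1.33 for miR-141-3p. Without KO replicate 3 this difference was -0.82 for miR-200a-3p and -0.69 for miR-429-3p, and without KO replicate 2 it was -0.7 and -0.32.

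Leaving out KO replicate 1 lowered the p-values most. Without it, all 7 products reached an unadjusted p under 0.05 in edgeR, from 0.00043 for miR-141-3p to 0.0101 for miR-200c-3p, where 12.7% of 561 tested miRNAs did. The log2 fold changes were then 2.25 to 3.18, and the adjusted p-values, 0.132 for 6 products and 0.227 for miR-200c-3p, did not pass. With KO replicate 2 or 3 left out, 0 of 7 reached an unadjusted p under 0.05, where 8.94% and 17.3% of tested miRNAs did. The same 0 of 7 held without WT replicate 1, 2 or 3, where 2.87%, 2.48% and 3.25% did. Without KO replicate 3, 18 of 560 miRNAs passed the adjusted threshold (3.21%), and none of them was a miR-200 product.

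**Figure D2:**
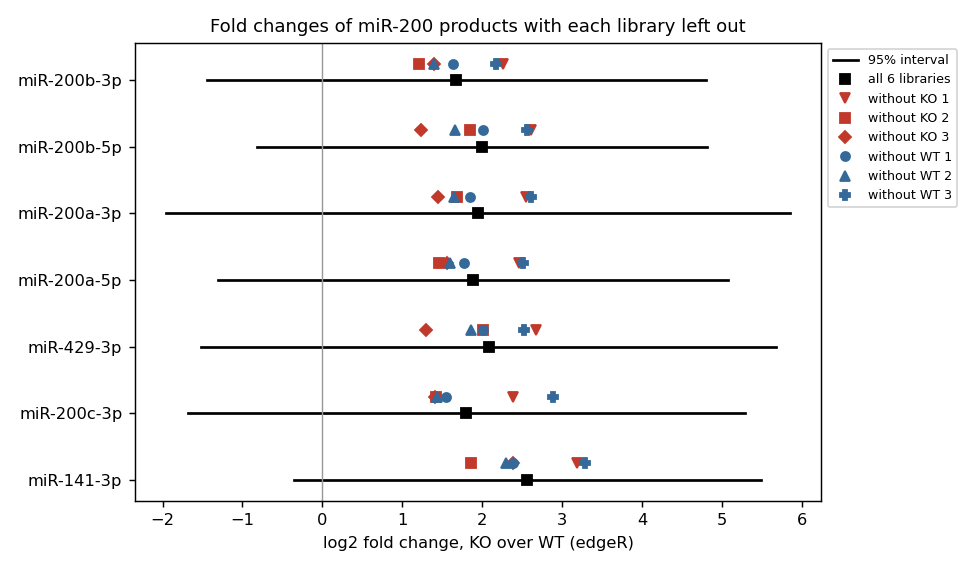
Log2 fold change of each miR-200 product, KO over WT, from edgeR. Black squares and lines give the estimate and 95% interval from all 6 libraries, and coloured symbols give the estimate with the named library left out. Every estimate is above 0, and all 7 intervals include 0.

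The miR-200 products were among the miRNAs with the widest spread over KO libraries. The SD of log2 CPM over the 3 KO libraries was 4.04 for miR-200a-3p, 3.72 for miR-429-3p and 2.79 to 3.08 for the other 5. The median over 541 tested miRNAs was 0.396 and the 95th percentile 1.06. The 10 largest KO spreads were those of the 7 miR-200 products and of 3 miRNAs of the miR-183 cluster. The next was miR-3087-3p, named after its value was seen, at 1.97. In WT libraries the SD was 0.655 to 1.27 for the 7 products, beside a median of 0.14. There, 4 of the 7 were among the 10 largest. These ranks describe 3 libraries per genotype and were not tested.

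**Figure D3:**
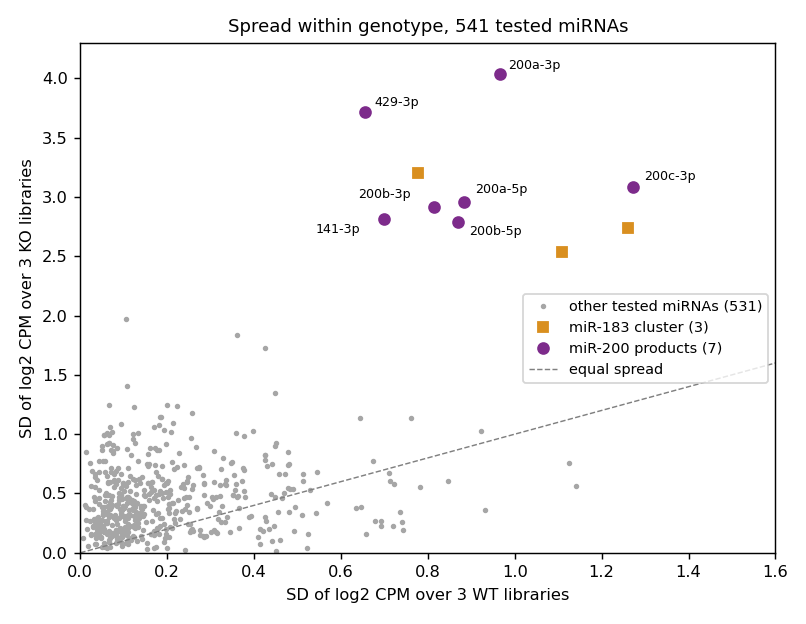
SD of log2 CPM over the 3 KO libraries (vertical axis) and the 3 WT libraries (horizontal axis) for each of the 541 tested miRNAs, with the miR-200 products in purple and the miR-183 cluster in orange. The miR-200 products lie between 2.79 and 4.04 on the vertical axis, and every miRNA outside these groups lies at 1.97 or below.

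Both loci followed the same course. Summed CPM of the 5 chromosome 4 products was 16.7, 935.7 and 1001 in KO replicates 1, 2 and 3, against 160.3, 87.5 and 297 in WT replicates 1, 2 and 3. Summed CPM of the 2 chromosome 6 products was 0.682, 37.9 and 36.9 in KO, against 4.26, 2.43 and 13.9 in WT. From the lowest to the highest library the sums differed 59.8-fold and 55.5-fold. The chromosome 6 share of the family's reads was 3.92%, 3.89% and 3.56% in KO, against 2.59%, 2.7% and 4.46% in WT. For KO replicate 1 the exact 95% binomial interval, which covers counting error only, ran from 1.9% to 7.09%. The mean shares were 3.79% ± 0.2 over KO libraries and 3.25% ± 1.05 over WT libraries (SD, n = 3 each), a difference within the WT spread.

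The mix of products was less even. In KO replicate 1 the seed group of miR-200a-3p and miR-141-3p made up 23% of 230 reads of 3p products (exact interval 17.8% to 29%). In the other libraries it made up 48.8% and 54% in KO and 45.3%, 44.6% and 49.2% in WT. The interval of KO replicate 1 did not reach that of any other library, the lowest of which began at 41.6%. Of the 3p reads of the chromosome 4 locus, miR-200b-3p held 72.7% in KO replicate 1 and 37% to 48.5% in the other 5 libraries. KO replicates 2 and 3 also differed from each other beyond counting error. In them miR-429-3p held 4.73% (interval 4.33% to 5.16%) and 7.28% (6.81% to 7.77%) of these reads.

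The arm shares of miR-200a showed the same library as different. In KO replicate 1 they use the same 53 reads of miR-200a-3p as the shares above, so they are not a separate observation. The 5p arm held 32.1% of 78 miR-200a reads in KO replicate 1 (exact interval 21.9% to 43.6%), 13.2% and 10.7% in the other KO libraries, and 12.2%, 13.4% and 12.2% in WT. For miR-200b the 5p arm held 0, 0.815% and 1.37% of reads in KO, against 0.894%, 0.561% and 0.861% in WT. For the 0 of 160 reads in KO replicate 1 the exact interval ran from 0 to 2.28%. The share of the 5p arm was thus higher for miR-200a than for miR-200b in each of the 6 libraries.

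Ratios within a library were compared between genotypes for 6 pairs of products, and none differed by more than the spread between libraries. The ratio of miR-200a-3p to miR-200b-3p, with 0.5 reads added to each count, was 0.333, 1.12 and 1.51 in KO, against 0.958, 0.949 and 1.17 in WT. On the log2 scale its mean was -0.28 ± 1.15 over KO libraries and 0.03 ± 0.17 over WT libraries (SD, n = 3 each; p = 0.9 in a two-sided exact permutation test). Over the 6 ratios the exact two-sided permutation p ranged from 0.6 to 1, each with an adjusted p of 1, and the smallest p that 3 against 3 libraries can give is 0.1. The ratio of miR-200c-3p to miR-200b-3p, from different loci, had the smallest range over all 6 libraries, from 0.0545 in WT replicate 1 to 0.108 in WT replicate 3, with 0.0654, 0.0849 and 0.0974 in KO. Over the WT libraries alone it had the widest range of the 6 ratios, 0.99 log2 units against 0.15 to 0.87 for the others.

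**Figure D4:**
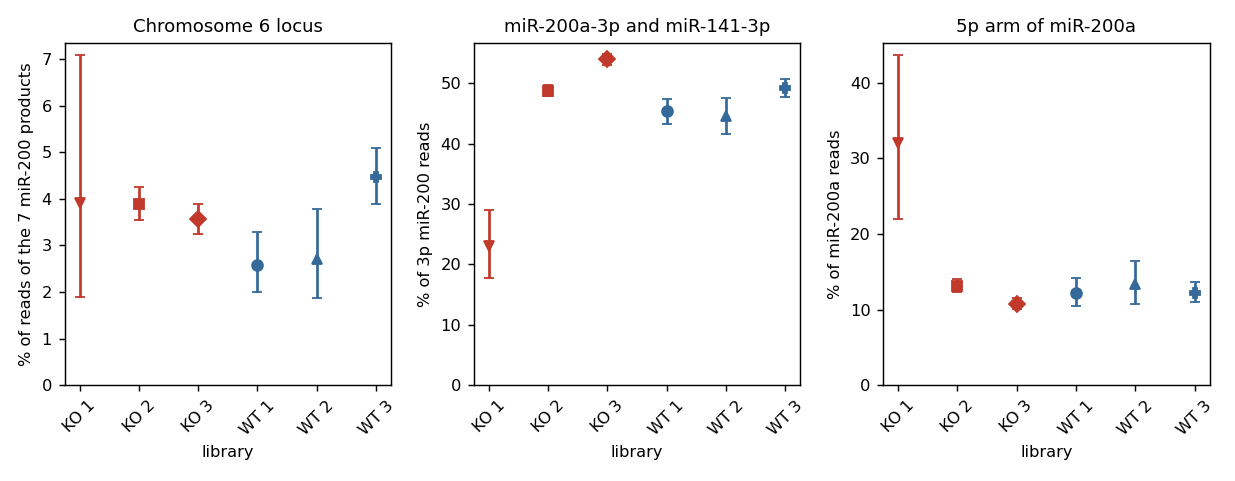
Share of the family's reads from the chromosome 6 locus (left), share of 3p reads from miR-200a-3p and miR-141-3p (middle) and 5p share of miR-200a reads (right), in percent, in each KO (red) and WT (blue) library, with exact 95% binomial intervals. In the middle and right panels KO replicate 1, at 23% and 32.1%, stands apart from the other 5 libraries. Both panels use the miR-200a-3p reads and are not independent.

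The miRNAs whose profile over the 6 libraries was most like that of the family came from the miR-183 cluster. This cluster is expressed in sensory cells, among them photoreceptors, hair cells and olfactory neurons, and lies on chromosome 6, 94548584 bases from Mir200c. Likeness was measured as the root-mean-square difference of centred log2 CPM from the mean profile of the 7 products, over 295 annotated miRNAs with a mean of at least 10 CPM. It was 0.354 for miR-183-5p and 0.434 for miR-182-5p, beside 0.148 to 0.54 for the 7 products themselves and a median of 2.01. The next were miR-1298-5p at 1.47, miR-135a-5p at 1.59 and miR-135b-5p at 1.6. The family and the cluster share neither seed nor locus.
mmu-miR-183-5p: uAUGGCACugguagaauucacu
mmu-miR-182-5p: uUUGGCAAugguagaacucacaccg
mmu-miR-96-5p: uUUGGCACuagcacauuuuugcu

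Values of miR-183-5p were 17.4, 501.1 and 437 CPM in KO, against 85.6, 36.7 and 210.9 CPM in WT. Those of miR-182-5p were 28.2, 631.2 and 557 CPM in KO, against 92.4, 47 and 218 CPM in WT. The third member, miR-96-5p, at a mean of 9.19 CPM below the level set for the ranking, had 0.341, 14.3 and 31.7 CPM in KO, against 2.49, 1.55 and 4.8 CPM in WT. The passenger strands miR-183-3p and miR-182-3p had at most 2 reads in any library. None of the 3 tested members passed, with edgeR log2 fold changes of 1.52 (SE 1.27), 1.77 (SE 1.19) and 2.38 (SE 1.36) for miR-183-5p, miR-182-5p and miR-96-5p and a lowest adjusted p of 0.749.

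All 7 miR-200 products and all 3 tested members of the miR-183 cluster had KO replicates 2 and 3 above and KO replicate 1 below every WT library, with WT replicate 3 above WT replicate 1 and WT replicate 2 lowest of the WT libraries. This order, looked for after it was seen in the family, occurred in 3 of the other 531 tested miRNAs (0.565%).

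The summed levels of the other lists followed other orders of libraries, although miR-34b-3p of the choroid plexus and ciliated-cell list shared the order of the family. Of 8 other epithelial miRNAs, 7 were tested, 0 passed and 3 had higher and 4 lower values in KO (median log2 fold change -0.01, beside 0.03 over all tested miRNAs). Their summed level was 314.4 to 428 CPM in KO libraries and 372 to 405 CPM in WT libraries. Within this list, miR-192-5p, known from gut, liver and kidney epithelium, had 265.4, 248.3 and 194.1 CPM in KO, against 234.6, 259.3 and 251.6 CPM in WT. For miR-194-5p, which is processed with miR-192, the values were 47.2, 47.4 and 37.5 CPM in KO, against 43.6, 47.9 and 42.1 CPM in WT. miR-205-5p, a miRNA of stratified epithelium named here after its values were seen, had 2, 10 and 1 reads in KO, against 3, 1 and 0 reads in WT. It did not pass the count filter, and these counts are too low to rank the libraries.

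The 3 pituitary and endocrine miRNAs were all tested, and 0 passed. All 3 had negative log2 fold changes (median -0.29, beside 0.03 over all tested miRNAs). Their summed level was 5059 to 6480 CPM in KO libraries and 6975 to 7751 CPM in WT libraries. miR-7a-5p, abundant in neuroendocrine cells and neurons, had 5713, 4410 and 4816 CPM in KO, against 6695, 6138 and 6831 CPM in WT, so its groups did not overlap. Its paralogue miR-7b-5p had 724, 607 and 783 CPM in KO, against 893, 804 and 879 CPM in WT, again without overlap. Groups did not overlap for 15.7% of all tested miRNAs. The edgeR unadjusted p of miR-7a-5p was 0.0265 (adjusted p = 0.705), where 6.47% of tested miRNAs were under 0.05. The endocrine miR-375-3p, named after its values were seen, had 42.7, 42 and 23.3 CPM in KO, against 37.8, 32.5 and 40.4 CPM in WT. The edgeR estimate was -0.037 on the log2 scale, and KO replicates 1 and 2 lay above and KO replicate 3 below every WT library.

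Of 7 miRNAs of choroid plexus and ciliated cells, 4 were tested and 0 passed. All 4 had higher values in KO (median log2 fold change 0.44, beside 0.03 over all tested miRNAs). The summed level of the 7 was 1010, 1024 and 2101 CPM in KO replicates 1, 2 and 3. In WT it was 964 to 1034 CPM, so it was high in KO replicate 3 alone. miR-204-5p, a miRNA of choroid plexus, had 766, 664 and 1621 CPM in KO, against 667, 683 and 743 CPM in WT. miR-34c-5p, known from motile cilia, had 238, 351 and 468 CPM in KO, against 290, 308 and 284 CPM in WT. Of the tested members, miR-34c-5p and miR-34b-3p had KO replicates 2 and 3 above and KO replicate 1 below every WT library, as the miR-200 products did. miR-34b-3p, named with miR-34b-5p and miR-211-5p after its values were seen, had 4.23, 6.48 and 6.76 CPM in KO, against 4.46, 4.42 and 5 CPM in WT, exactly the library order of the family over a much smaller range. The tested miR-211-5p and the untested miR-34b-5p had 9 to 34 reads in each KO library and 3 to 24 in each WT library. Both were above every WT library in KO replicates 2 and 3, but neither was below every WT library in KO replicate 1. There miR-34b-5p had 0.614 CPM, against 0.197 to 0.263 CPM in WT, and miR-211-5p 1.02 CPM, against 0.723 to 1.57 CPM in WT. The other untested members, miR-449a-5p and miR-449c-5p, were also named after their values were seen. They had 7, 5 and 8 reads and 0, 0 and 0 reads in KO, against 15, 6 and 16 and 1, 1 and 0 in WT. miR-204-5p, which makes up most of the sum, was below every WT library in KO replicate 2. No other list of olfactory miRNAs was set beside these, and the part of tissue composition in the family's spread was not tested. In bulk tissue, fewer cells of a type and less RNA per cell cannot be told apart.

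**Figure D5:**
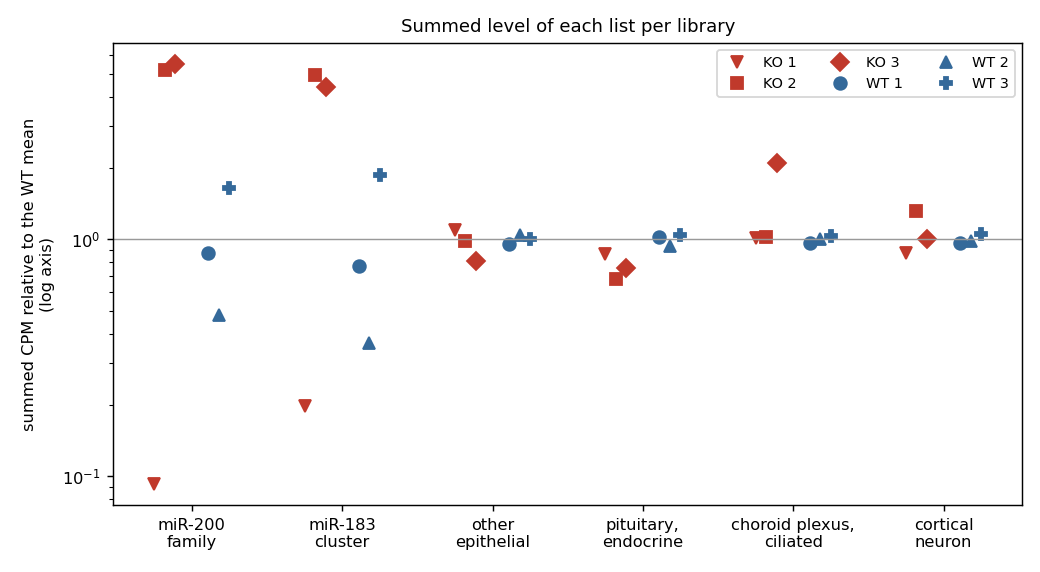
Summed CPM of each list in each library, divided by the mean of the 3 WT libraries (log axis), for KO (red, left of each pair) and WT (blue, right). The miR-200 family and the miR-183 cluster spread widely, both with KO replicate 1 lowest and KO replicates 2 and 3 highest. KO replicate 3 is highest for the family and KO replicate 2 for the cluster. Family sums are 17.4 to 1037 CPM in KO libraries and 89.9 to 310.8 CPM in WT libraries. Other epithelial miRNAs keep to 314.4 to 428 CPM in KO libraries and 372 to 405 CPM in WT libraries.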

How the data were processed

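The authors deposited unnormalized whole-number counts of reads per mature miRNA, per the file headers. The deposited TPM columns are the same counts rescaled to 1 total per library, with no length term (largest deviation 4.95e-10), and were not used. Per the submitters' processing notes, Bowtie, DESeq2 and mm10 were used. How reads were trimmed, how many mismatches were allowed, how multiply matching reads were handled and which miRBase release applied is not given in the sources used here. There were 0 columns belonging to no sample.

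The main test was that of edgeR 4.0.16 in R 4.3.3 (filterByExpr with a minimum count of 10, TMM, robust quasi-likelihood test, Benjamini-Hochberg over all 541 tested miRNAs, threshold 0.05). The procedure was tested on simulated counts. Log2 CPM used a prior count of 2. Shares have exact Clopper-Pearson intervals. SciPy 1.17.1 gave exact permutation tests of ratios. DESeq2 1.42.0, limma 3.58.1 (voom), other scalings, no filter and left-out libraries were alternatives. Replicate numbers follow accession order and only name a library. No pair of libraries within a genotype looked like a duplicate (chi-square of at least 30 per degree of freedom). Reads carry no molecular identifiers.

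Named were the 7 products, the other arms of their hairpins, the miR-183 cluster, the 2 most abundant members of each other list and the 5 closest profiles. The members and lists were chosen with earlier results of these data known. Positions come from RefSeq and from GENCODE M21 on GRCm38.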

Additional observations from a re-analysis of the deposited data

How the results depend on the processing

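All 91 fold changes of the 7 products under 13 other settings with a test were higher in KO, and 0 passed. These signs are not independent, since the settings refit the same libraries and each keeps KO replicate 2, KO replicate 3 or both. In edgeR the settings were relative log expression (RLE) scaling, total counts, scaling without the 5 most abundant miRNAs, no count filter and no robust estimation. The others were DESeq2, limma-voom and edgeR with each library left out. With all libraries the log2 fold changes ranged from 0.3 for miR-200b-5p under limma-voom to 2.68 for miR-141-3p. The count of called products was 0 in each setting. The count over all miRNAs was 0, except for 18 without KO replicate 3, so that left-out libraries gave 0 to 18. The cause was not tested.

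As differences of mean log2 CPM with a KO library left out, miR-200a-3p ranged from -0.82 to 2.73, miR-200b-3p from -0.19 to 2.38, miR-200b-5p from -0.019 to 2.52 and miR-429-3p from -0.69 to 2.7. Negative values were -0.70, -0.19 and -0.32 for miR-200a-3p, miR-200b-3p and miR-429-3p without KO replicate 2, and -0.82, -0.10 and -0.69 for the same products and -0.019 for miR-200b-5p without KO replicate 3. The products miR-200a-5p, miR-200c-3p and miR-141-3p stayed above 0.

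Summed levels, as log2 of the KO mean over the WT mean, ranged from 1.39 to 2.42 (chromosome 4) and 1.46 to 2.91 (chromosome 6) over left-out libraries. The KO minus WT share of the seed group of miR-200a-3p and miR-141-3p ranged from -10.4 to 5.02 percentage points, with 5.02 without KO replicate 1. Ratios between genotypes, on the log2 scale, changed sign without KO replicate 1 for miR-200a-3p over miR-200a-5p (0.10, range -0.89 to 0.10), miR-200b-3p over miR-200b-5p (-0.39, range -0.39 to 0.69), miR-200a-3p over miR-200b-3p (0.35, range -0.74 to 0.35) and miR-429-3p over miR-200b-3p (0.33, range -0.71 to 0.33). The second of these was -0.49 with no offset and -0.036 with an offset of 1. For miR-141-3p over miR-200c-3p the range was -0.32 to 0.51, with -0.32, -0.04 and -0.19 without KO replicate 2, KO replicate 3 and WT replicate 3. No paired analysis was possible because the labels carry no replicate numbers. Counting error is largest in KO replicate 1, where the 7 products had 255 reads in all.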
